A study of Homo sapiens with 36 samples.

Results

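The ETS transcription factors that act at the end of the ERK pathway were examined across 3 breast cancer cell lines in which MEK was inhibited or DUSP4 was depleted. They are the PEA3 genes ETV1, ETV4 and ETV5, the founding members ETS1 and ETS2, and the ternary complex factors ELK1, ELK3 and ELK4. The genes were chosen by name, and each was read from the array probe whose only gene symbol was that gene. They make up 8 of the 17958 genes measured in this way, and 3 of the 8 are PEA3 genes. Each had 1 such probe, so no choice between probes was needed.

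The lines MDA231, SUM159PT and BT549 are established lines from breast tumours that lack hormone receptors. In each line, 3 arrays came from cells given 10 nM of siRNA against DUSP4 plus DMSO (siDUSP4). Another 3 arrays each came from cells given 10 nM of non-targeting siRNA plus 1 uM of AZD6244 for 4 h or for 24 h before harvest. AZD6244, also called selumetinib, blocks MEK1 and MEK2, the kinases that activate ERK. The group against which these were set received 10 nM of the non-targeting siRNA and DMSO (siCONTROL, 3 arrays), and all cells were harvested 96 h after transfection. DUSP4 is a nuclear phosphatase that switches off ERK and related kinases. The labels do not say whether the 3 arrays of a group came from separate cultures. The p-values below therefore reflect array-to-array spread within groups, pooled over the 12 groups, and that spread could be technical. In bulk RNA, fewer cells with a transcript and less of it per cell cannot be told apart.

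ETS factors share a winged helix domain that binds DNA around a GGAA core. ERK phosphorylates ELK1, ELK3 and ELK4, which sit with SRF on the promoters of immediate early genes, and it also phosphorylates ETS1 and ETS2. The PEA3 genes are different in that ERK signalling is known to raise their transcription, partly by relieving repression by CIC, so their mRNA is used as a readout of the pathway. In breast tumours PEA3 and ETS factors are known for driving protease and invasion genes.

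Values are log2 signals as deposited, changes are differences of log2 signal with limma's standard error (SE), and called genes are those with a Benjamini-Hochberg adjusted p under 0.05 across the 17958 genes. The SE rests on the spread pooled over the 12 groups, so it can understate that of an uneven group. ETV4 in MDA231, for example, had an SD of 0.65 at 4 h and of 0.04 in siCONTROL. A signal cannot be set against that of another gene, because each comes from its own probe. Where arrays of groups are said not to overlap, this only describes the values. The share of all genes separated in that way was not counted. DUSP4 itself averaged 7.64 ± 0.18 in siDUSP4 and 10.06 ± 0.08 in siCONTROL cells of MDA231, 5.30 ± 0.02 and 7.14 ± 0.12 in SUM159PT, and 4.89 ± 0.40 and 7.13 ± 0.09 in BT549 (SD, n = 3 each). Array medians over all probes ran from 5.12 to 5.40. The upper quartile over genes was at most 8.20 on arrays B and C of MDA231 at 4 h and was 8.14 on array A of BT549 at 24 h, while all other arrays lay between 8.28 and 8.63. For 24 arrays the titles disagree with the source names over whether the cells were SUM159PT or BT549, and the titles were followed. RB1, which BT549 cells are known to lack, averaged 6.83 ± 0.16 in siCONTROL arrays titled BT549, 9.40 ± 0.01 in those titled SUM159PT and 10.31 ± 0.09 in MDA231, and it averaged 8.03 ± 0.10 in siDUSP4 arrays titled BT549. ESR1 and PGR averaged 3.40 to 4.31 in siCONTROL cells of the lines, below the median probe level of 5.33, whereas the mesenchymal gene VIM was at 11.89 to 12.15. ZEB1 was likewise high (9.45 to 10.53), and CDH1 was below that level (4.23 to 5.04). ERBB2, at 7.32 to 7.77, was above it in each line. EPCAM was above it in MDA231 (8.39) and SUM159PT (5.52) and below it in BT549 (4.89). Of 6 markers of blood and endothelial cells, 1 was above the median probe level in MDA231, 2 in SUM159PT and 0 in BT549 siCONTROL arrays, and that one in MDA231 was PECAM1.

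In siCONTROL cells all 8 genes had signals above the median probe level in MDA231 and SUM159PT, and ETV1 was the exception in BT549. ETV1 read 9.86, 9.95 and 9.92 in MDA231, 9.08, 9.19 and 9.17 in SUM159PT, and 4.11, 4.04 and 3.70 in BT549. MDA231 and SUM159PT arrays were all far above BT549 arrays, in which the ETV1 probe lay at the 13.9th percentile of all genes. Unlike ETV1, ETV5 was highest in BT549, and it averaged 9.20 ± 0.13 in MDA231, 8.38 ± 0.04 in SUM159PT and 9.88 ± 0.16 in BT549 (SD, n = 3 each), each pair of lines differing beyond its spread. Both genes were higher in MDA231 than in SUM159PT, ETV1 by 0.76 and ETV5 by 0.82. ETV4 had the nearest levels of the PEA3 genes, at 8.66 ± 0.04, 8.41 ± 0.06 and 8.14 ± 0.15 in the same order, and only MDA231 against BT549 was called (0.51, SE 0.19, adjusted p = 0.027). That call was lost without any 1 of 4 of the 6 arrays (MDA231 A or C, BT549 B or C), with values of 0.45 to 0.51 and adjusted p of 0.06 to 0.10.

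ETS2 was at 8.99 ± 0.10 in MDA231, 10.72 ± 0.02 in SUM159PT and 10.99 ± 0.02 in BT549, which puts MDA231 at 30.2% of the SUM159PT signal. Without SUM159PT array B or BT549 array C the ETS2 difference between those lines was not called (-0.26, adjusted p = 0.052 and 0.051). ETS1 was highest in BT549 (11.09 ± 0.06), next in MDA231 (10.67 ± 0.08) and lowest in SUM159PT (10.38 ± 0.04). ELK3 was highest in MDA231 at 10.79 ± 0.07, while SUM159PT at 9.87 ± 0.07 and BT549 at 10.09 ± 0.11 were not told apart (adjusted p = 0.16). ELK1 was highest in BT549 at 8.52 ± 0.06, and MDA231 (7.42 ± 0.12) and SUM159PT (7.58 ± 0.07) were not told apart (adjusted p = 0.34). ELK4 spanned 8.08 to 8.18 and no pair of lines was called. Of the 8 genes, 5 differed between MDA231 and SUM159PT, where 44.8% of all genes did, 7 between MDA231 and BT549 (48.1% of all genes), and 5 between SUM159PT and BT549 (50.2% of all genes).

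**Figure D1:**
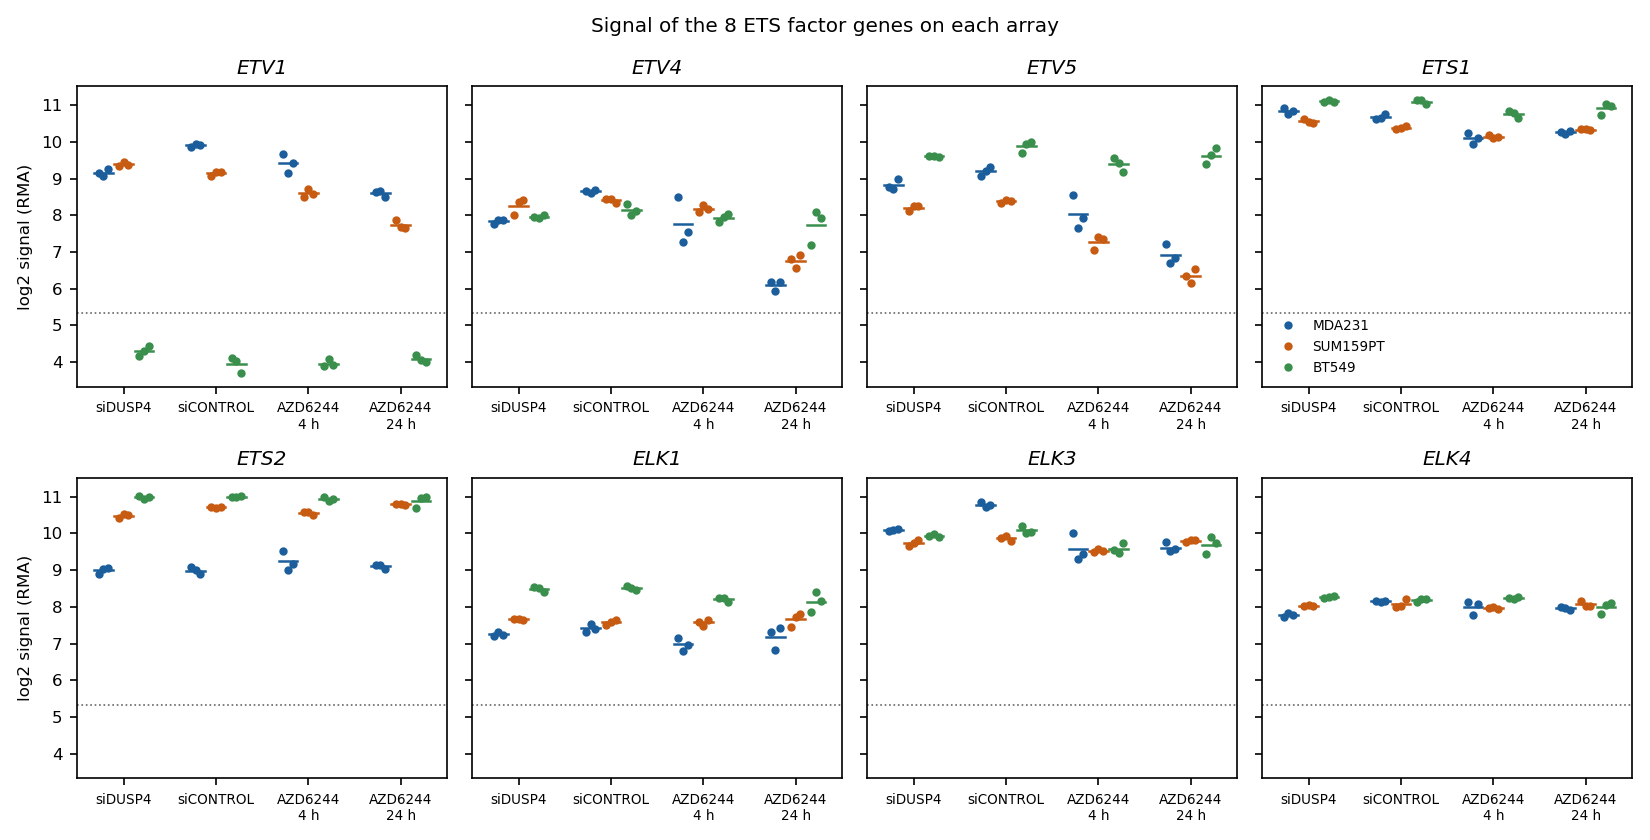
Log2 RMA signal (y axis) of the 8 ETS factor genes on each of 36 arrays, by group (x axis), with points for arrays, short bars for the mean of 3 arrays, colours for the 3 lines and a dotted line at the median probe level. ETV1 and ETV5 step down at 4 h and again at 24 h in MDA231 and SUM159PT, ETV4 does so in MDA231 and is low in SUM159PT at 24 h, and ETV1 lies below the dotted line on every BT549 array.

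Promoter windows from 250 bases before to 50 after a start are held in RefSeq tables (GRCh38.p14) for ETV1, ETS2, ELK1, ELK3 and ELK4, and 12 windows matched. ETV4, ETV5 and ETS1 were not read there. ETV1, which fell in 2 lines with AZD6244, and ELK4, which was not called with AZD6244, are shown because both hold the ETS letters CCGGAA, in capitals, read on both strands. The ETV1 window lies at chr7:13991376-13991675 and the ELK4 window at chr1:205631962-205632261, both on the minus strand and printed 5′ to 3′ along the gene.
ETV1: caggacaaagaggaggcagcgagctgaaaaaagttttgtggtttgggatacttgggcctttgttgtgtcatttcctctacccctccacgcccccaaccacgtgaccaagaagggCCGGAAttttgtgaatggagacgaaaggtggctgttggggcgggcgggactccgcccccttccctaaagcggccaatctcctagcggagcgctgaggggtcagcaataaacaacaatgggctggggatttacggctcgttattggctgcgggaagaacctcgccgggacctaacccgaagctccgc
ELK4: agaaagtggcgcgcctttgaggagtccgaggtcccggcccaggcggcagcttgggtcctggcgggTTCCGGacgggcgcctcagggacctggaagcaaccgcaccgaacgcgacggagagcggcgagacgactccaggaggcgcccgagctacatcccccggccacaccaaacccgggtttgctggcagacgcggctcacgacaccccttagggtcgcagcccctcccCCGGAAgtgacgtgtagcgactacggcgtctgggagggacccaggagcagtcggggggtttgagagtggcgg
CCGGAA was found in 4 of the 12 windows, 3 of ETV1 and the 1 of ELK4, where 2 of the ETV1 windows overlap and hold the same site, and in 17.2% of all 35116 windows. The longer CCGGAAGT, which contains it, was found in 1 of the 12, that of ELK4, and in 4.14% of all. The AP-1 letters TGANTCA, the CRE letters TGACGTCA and the CArG box bound by SRF were found in 0 of the 12, and in 7.71%, 1.85% and 1.29% of all windows. The absence of a match says only that those letters are not in these windows.

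ETV5 was lower at 4 h of AZD6244 in MDA231 and SUM159PT. In MDA231 its signal was 9.07, 9.22 and 9.32 in siCONTROL, 8.54, 7.66 and 7.93 at 4 h, and 7.21, 6.70 and 6.85 at 24 h. In SUM159PT it was 8.34, 8.41 and 8.40 in siCONTROL, 7.06, 7.41 and 7.35 at 4 h, and 6.36, 6.15 and 6.55 at 24 h. No array of 1 time overlapped those of another in either line. ETV5, an activator that ERK signalling induces in many tissues, fell in MDA231 at 4 h (-1.16, SE 0.16, adjusted p = 5.2e-06) and at 24 h (-2.28, SE 0.16, adjusted p = 8.2e-13), to 44.8% and 20.6% of the siCONTROL signal. In SUM159PT it fell at both times (-1.11, SE 0.16, adjusted p = 3.3e-05, and -2.03, SE 0.16, adjusted p = 1.4e-10), to 46.2% and 24.5%.

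ETV4 encodes the factor first named PEA3 and had the largest fall of the 8 genes in MDA231 at 24 h, but reached it later. Its MDA231 arrays read 8.66, 8.61 and 8.69 in siCONTROL, 8.50, 7.26 and 7.54 at 4 h, and 6.17, 5.95 and 6.18 at 24 h. The 4 h arrays were uneven, with array A close to the siCONTROL arrays and arrays B and C well below them. In SUM159PT the arrays read 8.44, 8.44 and 8.34 in siCONTROL, 8.09, 8.29 and 8.17 at 4 h, and 6.80, 6.57 and 6.93 at 24 h, so that nearly all of the fall came after 4 h. At 24 h ETV4 had fallen to 17.0% of the siCONTROL signal in MDA231 (-2.56, SE 0.19, adjusted p = 7.2e-12) and to 32.0% in SUM159PT (-1.64, SE 0.19, adjusted p = 1e-06). At 4 h it had fallen to 54.0% in MDA231 (-0.89, SE 0.19, adjusted p = 0.0025), and the SUM159PT change of -0.23 was not called (95% interval -0.62 to 0.17, adjusted p = 0.52). The MDA231 call at 4 h was lost without array B of that group (-0.64, adjusted p = 0.071), one of the arrays with a low upper quartile.

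ETV1, the third PEA3 gene, read 9.67, 9.16 and 9.42 at 4 h and 8.64, 8.66 and 8.49 at 24 h in MDA231. In SUM159PT it read 8.51, 8.71 and 8.57 at 4 h and 7.86, 7.69 and 7.66 at 24 h. All of these arrays were below the siCONTROL arrays of their line given above. The change was -0.49 at 4 h (SE 0.11, adjusted p = 0.0033) and -1.32 at 24 h (SE 0.11, adjusted p = 8e-11) in MDA231, and -0.55 (SE 0.11, adjusted p = 0.0031) and -1.42 (SE 0.11, adjusted p = 1.4e-10) in SUM159PT. The 4 h call in MDA231 was lost after repeated quantile normalization (-0.27, adjusted p = 0.10) and without array B at 4 h (-0.36, adjusted p = 0.071). When the siCONTROL and 4 h arrays of MDA231 were fitted by themselves, ETV1 and ETV4 were not called (adjusted p = 0.25 and 0.18), nor were ETS1 and ELK1 below (adjusted p = 0.13 and 0.27).

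In BT549 no PEA3 gene was called at either time. ETV5 read 9.70, 9.94 and 10.01 in siCONTROL, 9.55, 9.42 and 9.19 at 4 h, and 9.39, 9.65 and 9.82 at 24 h. The 4 h arrays were all below the siCONTROL arrays, and the 24 h arrays overlapped them. The 4 h change of ETV5 was -0.49 (95% interval -0.81 to -0.17, adjusted p = 0.24), and it was called after repeated quantile normalization (-0.46, adjusted p = 0.019). ETV4 read 7.19, 8.08 and 7.93 at 24 h against 8.31, 8.01 and 8.11 in siCONTROL, a change of -0.41 (95% interval -0.81 to -0.02, adjusted p = 0.14). It was -0.14 without 24 h array A, the array with a low upper quartile, and -0.59 and called without array B (adjusted p = 0.044). ETV1 stayed at its dim level, between 3.89 and 4.19 on the AZD6244 arrays, with 4 h and 24 h changes of 0.01 and 0.14, and a fall could not be read at such a signal.

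ETS1 is a widely expressed activator that ERK phosphorylates together with ETS2. ETS1 read 10.24, 9.94 and 10.10 at 4 h and 10.28, 10.22 and 10.29 at 24 h in MDA231, against 10.62, 10.64 and 10.76 in siCONTROL. Both AZD6244 groups were below every siCONTROL array. ETS1 fell to 66.9% of the siCONTROL signal at 4 h (-0.58, SE 0.09, adjusted p = 1.9e-05) and to 75.4% at 24 h (-0.41, SE 0.09, adjusted p = 0.00061). In SUM159PT its changes were -0.24 at 4 h (adjusted p = 0.099) and -0.05 at 24 h (95% interval -0.22 to 0.13, adjusted p = 0.86), and in BT549 they were -0.32 (adjusted p = 0.078) and -0.18 (adjusted p = 0.15). The BT549 change at 4 h was called after repeated quantile normalization (-0.27, adjusted p = 0.016). ETS2 was not called with AZD6244 in any line, and its 6 changes lay between -0.15 and 0.25. After repeated quantile normalization ETS2 was called higher in MDA231, by 0.48 at 4 h (adjusted p = 2e-06) and by 0.18 at 24 h (adjusted p = 0.03).

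ELK3, a ternary complex factor that represses until ERK phosphorylates it, had in MDA231 a 4 h fall about as large as that of ETV5. It read 10.01, 9.29 and 9.44 at 4 h and 9.76, 9.51 and 9.57 at 24 h, against 10.86, 10.72 and 10.78 in siCONTROL. The times overlapped each other and both lay below siCONTROL. ELK3 fell to 43.4% at 4 h (-1.20, SE 0.12, adjusted p = 2.3e-08) and to 44.4% at 24 h (-1.17, SE 0.12, adjusted p = 8.9e-09). In SUM159PT it was at 9.53 ± 0.05 at 4 h and 9.80 ± 0.04 at 24 h, against 9.87 ± 0.07 in siCONTROL (SD, n = 3 each). Neither SUM159PT change was called (-0.35, adjusted p = 0.10, and -0.07, 95% interval -0.32 to 0.18, adjusted p = 0.86). In BT549 ELK3 read 9.54, 9.46 and 9.75 at 4 h and 9.45, 9.89 and 9.74 at 24 h, against 10.21, 10.01 and 10.03 in siCONTROL, which lay above all of them. It was called at 4 h (-0.50, SE 0.12, adjusted p = 0.043) and at 24 h (-0.39, SE 0.12, adjusted p = 0.03). The 4 h call was lost without any 1 of the 6 arrays, with changes of -0.59 to -0.44 and adjusted p of 0.053 to 0.28. The 24 h call was lost without siCONTROL array A, B or C or 24 h array A (-0.43 to -0.27, adjusted p of 0.056 to 0.22), and after repeated quantile normalization (-0.25, adjusted p = 0.07) or with array medians aligned (-0.13, adjusted p = 0.25).

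ELK1, the best known ternary complex factor, read 7.16, 6.80 and 6.97 at 4 h in MDA231, against 7.30, 7.54 and 7.40 in siCONTROL. The groups did not overlap, and ELK1 fell (-0.44, SE 0.13, adjusted p = 0.018), while its 24 h change of -0.24 was not called (adjusted p = 0.23). That 4 h call was lost after repeated quantile normalization (-0.18, adjusted p = 0.26), when array medians were aligned (-0.26, adjusted p = 0.10), and without siCONTROL array B, 4 h array B or 4 h array C (-0.43 to -0.35). In BT549 ELK1 was called lower at 24 h (-0.38, SE 0.13, adjusted p = 0.039). That call was lost without any 1 of 5 of the 6 arrays (all but 24 h array B), the change being -0.25 without 24 h array A (adjusted p = 0.28) and -0.12 with array medians aligned (adjusted p = 0.37). ELK1 was not called in SUM159PT, with changes of -0.01 and 0.08. ELK4, the third ternary complex factor, was not called with AZD6244 in any line, and its 6 changes lay between -0.19 and 0.06.

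Counted by line, 6 of the 8 genes were lower at 4 h in MDA231, where 14.5% of all genes were lower, and 5 of 8 at 24 h (10.3% of all genes). In SUM159PT 2 of 8 were lower at 4 h (3.81% of all genes) and 3 of 8 at 24 h (2.94% of all genes). In BT549 1 of 8 was lower at 4 h (0.49% of all genes) and 2 of 8 at 24 h (12.4% of all genes). All 3 PEA3 genes and 2 of the 5 ETS and ELK genes were lower at 24 h in MDA231, 3 and 0 in SUM159PT, and 0 and 2 in BT549. Median changes at 24 h were -2.28 for the PEA3 genes and -0.24 for the ETS and ELK genes in MDA231, -1.64 and -0.02 in SUM159PT, and -0.26 and -0.19 in BT549, while the median of all genes was 0.02, -0.01 and -0.09. As the mean of the lines, 6 of 8 genes were lower at 4 h (12.7% of all genes) and 5 of 8 at 24 h (19.2% of all genes). Of these, ELK1 at 4 h (-0.25) was lost after repeated quantile normalization (-0.10, adjusted p = 0.29), and ETS1 at 24 h (-0.21) with array medians aligned (-0.10, adjusted p = 0.084).

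The share of all called genes that were higher depended on the scaling of the arrays. At 4 h in MDA231 200 genes were higher and 2598 lower, against 870 and 955 after repeated quantile normalization, which moved the median of all genes to 0.01, against -0.13 on the deposited scale. At 24 h in BT549 478 were higher and 2235 lower, against 639 and 621 after repeated quantile normalization, and 3890 and 411 with array medians aligned. The PEA3 calls at 24 h in MDA231 and SUM159PT and those of ETV1 and ETV5 at 4 h in SUM159PT held under every 1 of the 14 alternatives tried for each. So did the MDA231 calls of ETV5 and ELK3 at 4 h and of ELK3 and ETS1 at 24 h. The same was true of ETV1, ETV4 and ELK3 with siDUSP4 in MDA231.

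**Figure D2:**
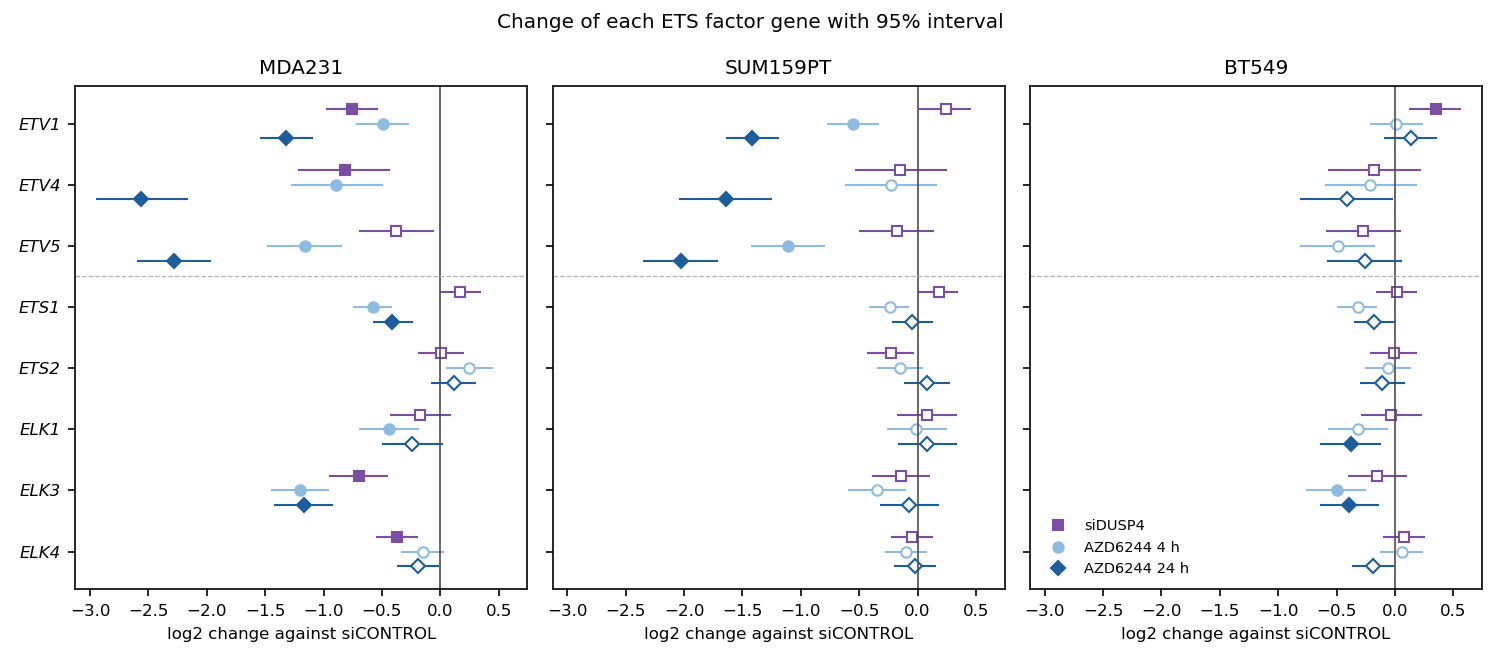
Log2 change against siCONTROL (x axis) of each ETS factor gene (y axis, PEA3 genes above the dashed line) in the 3 lines, with squares for siDUSP4, circles for AZD6244 at 4 h, diamonds for AZD6244 at 24 h, bars for 95% intervals and filled symbols for genes called at an adjusted p under 0.05. The 24 h diamonds of ETV1, ETV4 and ETV5 lie between -2.56 and -1.32 in MDA231 and SUM159PT, and between -0.41 and 0.14 in BT549.

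The PEA3 genes fell again between 4 h and 24 h in MDA231 and SUM159PT. Set directly against 4 h, the 24 h arrays were lower for all 3 PEA3 genes in MDA231, where 4.48% of all genes were lower, and in SUM159PT, where 0.685% were. ETV4 fell further in MDA231 (-1.67, SE 0.19, adjusted p = 1e-07) and in SUM159PT (-1.41, SE 0.19, adjusted p = 1.2e-05). ETV5 did so by similar steps (-1.12, SE 0.16, adjusted p = 2.8e-06, and -0.92, SE 0.16, adjusted p = 0.00039), and ETV1 likewise (-0.82, SE 0.11, adjusted p = 1.5e-06, and -0.86, SE 0.11, adjusted p = 4.5e-06). None of the 24 h arrays overlapped the 4 h arrays for these genes. All of these calls held under each of the 14 alternatives, and the ETV4 value in MDA231 was -1.30 without 4 h array A.

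Of the 5 ETS and ELK genes, none was called between 24 h and 4 h in MDA231 or SUM159PT by limma (0 of 5, where 24.9% of all genes were called in either direction in MDA231 and 3.01% in SUM159PT), and their changes lay between -0.13 and 0.20 in MDA231 and between 0.08 and 0.28 in SUM159PT. The 95% intervals in MDA231 all held 0, and without 24 h array B ELK1 was called higher there (0.38, adjusted p = 0.025, against a change of 0.20). The SUM159PT 95% intervals of ETS1, ETS2 and ELK3 lay above 0, and fitting that line alone called ETS2 (0.23, adjusted p = 0.037) and ELK3 (0.28, adjusted p = 0.024) higher at 24 h. With repeated quantile normalization ETS2 (-0.30, adjusted p = 0.00031) and ELK4 (-0.23, adjusted p = 0.012) were called lower at 24 h in MDA231. In BT549 0 of the 8 genes were called between the times by limma (7.73% of all genes were). ELK4 had the only 95% interval there that left out 0 (-0.43 to -0.07, adjusted p = 0.074). When array medians were aligned, 5 of the 8 were called higher in BT549. Under that scaling 3783 of all genes were higher and 221 lower, and the median of all genes was 0.18, against -0.07.

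Genes that act in ERK feedback or are known outputs of ERK were set beside these. Of 19 such genes 18 were lower at 4 h in MDA231 and 17 at 24 h (14.5% and 10.3% of all genes). Set against 4 h the 24 h arrays were higher for 11 and lower for 1, where 20.4% of all genes were higher and 4.48% lower. DUSP6, a phosphatase that removes ERK's activating phosphates, changed by -4.53 at 4 h (SE 0.21, adjusted p = 1.7e-16) and -3.16 at 24 h (SE 0.21, adjusted p = 2.4e-13), a difference of 1.37 (SE 0.21, adjusted p = 8.2e-06). SPRY4, a Sprouty inhibitor of the same pathway, changed by -4.32 and -3.26, a difference of 1.05 (SE 0.22, adjusted p = 0.00045). The 1 lower gene, named after its value was seen and also by its likeness to ETV4 below, was CCND1, which encodes cyclin D1 and changed by -0.81 at 4 h and -1.49 at 24 h (difference -0.69, adjusted p = 4.1e-05). After repeated quantile normalization, and likewise with array medians aligned, the counts were 9 higher and 3 lower. Over all genes 2497 were higher and 2578 lower with the first, and 2273 and 1942 with the second. In SUM159PT 13 of 19 were lower at 4 h and 10 at 24 h (3.81% and 2.94% of all genes). There 3 were higher at 24 h than at 4 h (2.32% of all genes were), among them SPRY4 (1.03, adjusted p = 0.0037) and SPRY1 (0.43, adjusted p = 0.017). In BT549 7 were lower at 4 h and 9 at 24 h (0.49% and 12.4% of all genes). DUSP6 was at -1.60 (adjusted p = 2.8e-05) and -0.96 (adjusted p = 0.0037) in this line, in which no PEA3 gene was called.

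**Figure D3:**
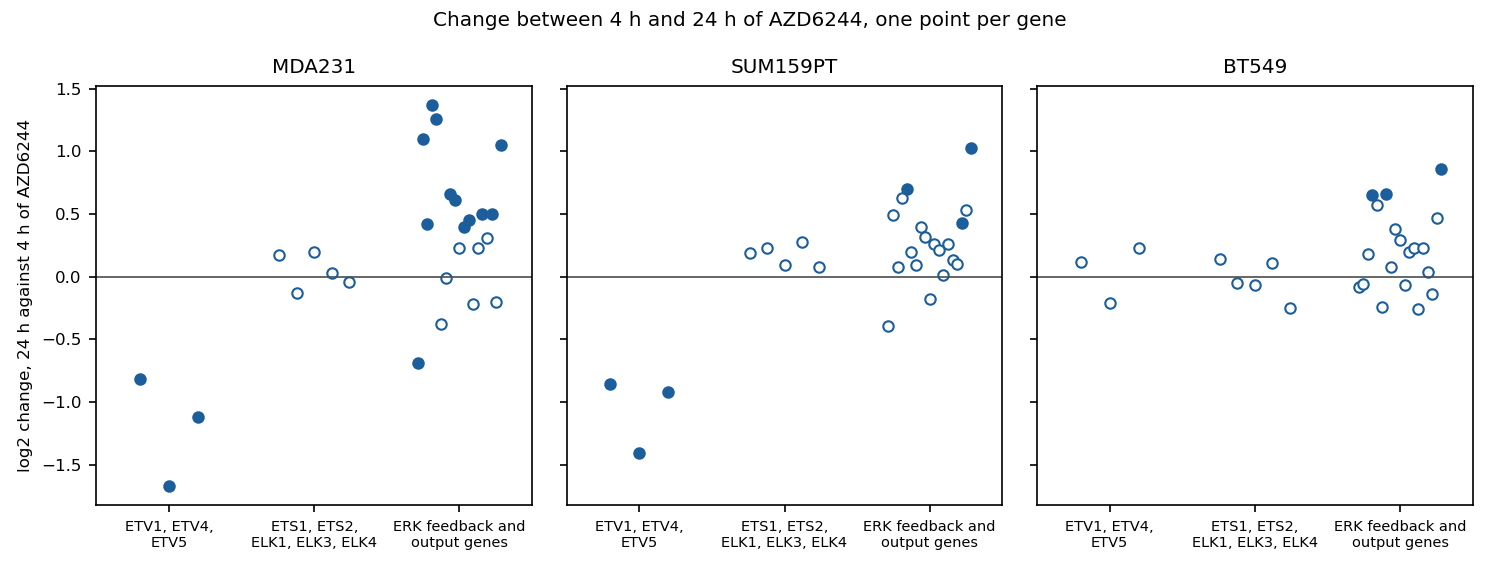
Log2 change between 24 h and 4 h of AZD6244 (y axis), with 1 point for each PEA3 gene, each other ETS factor gene and each of 19 ERK feedback and output genes (x axis), in the 3 lines, filled where called. The PEA3 points lie between -1.67 and -0.82 in MDA231 and SUM159PT, the other ETS factors between -0.25 and 0.28 in the 3 lines, and 11 ERK output genes are called above 0 in MDA231.

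With siDUSP4, ETV1, ETV4, ELK3 and ELK4 were called lower in MDA231, 4 of the 8 genes, where 9.77% of all genes were. ETV1 read 9.15, 9.07 and 9.26 in siDUSP4 cells and 9.86, 9.95 and 9.92 in siCONTROL cells of MDA231. ETV4 read 7.76, 7.88 and 7.87 in siDUSP4 and 8.66, 8.61 and 8.69 in siCONTROL, and ELK3 read 10.07, 10.08 and 10.11 against 10.86, 10.72 and 10.78. In all 3 genes every siDUSP4 array lay below every siCONTROL array. ELK4 and ETV5 were separated in the same way and ETS1 in the other, and of these ETV5 and ETS1 were not called. ETV4 (-0.82, SE 0.19, adjusted p = 0.0023), ETV1 (-0.76, SE 0.11, adjusted p = 6.4e-06) and ELK3 (-0.70, SE 0.12, adjusted p = 8.5e-05) fell to between 56.6% and 61.7% of the siCONTROL signal. ELK4 averaged 7.78 ± 0.05 in siDUSP4 and 8.15 ± 0.03 in siCONTROL (SD, n = 3 each), a change of -0.37 (SE 0.09, adjusted p = 0.0028) that was not called when the arrays of the line were fitted alone (adjusted p = 0.058). ETV5 changed by -0.38 (95% interval -0.70 to -0.05, adjusted p = 0.10) and was called after repeated quantile normalization (-0.33, adjusted p = 0.022). ETS1, ETS2 and ELK1 were not called, with changes of 0.17, 0.01 and -0.17. ETS1 was called higher in MDA231 after repeated quantile normalization (0.21, adjusted p = 0.013), and as the mean of the lines under 4 alternatives (0.12 to 0.18, adjusted p of 0.0018 to 0.049).

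In SUM159PT 0 of the 8 genes were called with siDUSP4 by limma, where 2.83% of all genes were, and 3 of them (ETV1, ETS1 and ETS2) had 95% intervals that left out 0. ETV1 changed by 0.24 (95% interval 0.01 to 0.46) and ETS2 by -0.23 (95% interval -0.43 to -0.03), and ETS2 was called after repeated quantile normalization (-0.20, adjusted p = 0.037) and when the line was fitted alone. In BT549 1 of 8 was called higher, where 4.97% of all genes were. This was ETV1, at 4.16, 4.29 and 4.43 in siDUSP4 and 4.11, 4.04 and 3.70 in siCONTROL (0.35, SE 0.11, adjusted p = 0.032), all at a dim signal below the median probe level. The call was lost without siCONTROL array C (0.22, adjusted p = 0.25), without siDUSP4 array C (0.28, adjusted p = 0.16) and without siDUSP4 array B (0.35, adjusted p = 0.081). As the mean of the lines, 3 of 8 genes were lower with siDUSP4 (11.3% of all genes), namely ETV4 (-0.38, SE 0.11, adjusted p = 0.013), ETV5 (-0.28, SE 0.09, adjusted p = 0.029) and ELK3 (-0.33, SE 0.07, adjusted p = 0.00098). The ETV5 call was lost when 1 of 6 arrays was left out (MDA231 siCONTROL C, siDUSP4 A or siDUSP4 B, SUM159PT siDUSP4 A, BT549 siCONTROL B or C), with changes of -0.27 to -0.26 and adjusted p of 0.054 to 0.063.

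siDUSP4 and AZD6244 were both set against the same siCONTROL arrays, so their changes share the error of those arrays. Side by side in MDA231, siDUSP4 and AZD6244 at 24 h gave changes of -0.76 and -1.32 for ETV1, -0.82 and -2.56 for ETV4, -0.38 and -2.28 for ETV5, -0.70 and -1.17 for ELK3, and 0.17 and -0.41 for ETS1. DUSP4 mRNA was itself lower with AZD6244 in MDA231, with changes of -2.35 at 4 h (SE 0.17, adjusted p = 1e-11) and -1.26 at 24 h (SE 0.17, adjusted p = 1e-06).

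The lines differed in these responses by an F test of the effect across lines. At 24 h of AZD6244 the effect differed for 4 of the 8 genes (9.91% of all genes), the 3 PEA3 genes and ELK3, with adjusted p of 6e-09 to 0.0001. At 4 h it differed for 1 (1.84% of all genes), which was ELK3 (adjusted p = 0.0079), and for 5 when 4 h array A of MDA231 was left out. With siDUSP4 it differed for 3 (15.5% of all genes), namely ETV1 (adjusted p = 5.2e-06), ELK3 (adjusted p = 0.029) and ELK4 (adjusted p = 0.03). That count was 1 without siCONTROL array A or C, or siDUSP4 array A or C, of MDA231. Counts over all genes with those arrays left out are not given here. ETV1 was dim in BT549, so its tests cannot tell a different response there from a signal too low to fall. In MDA231 and SUM159PT its changes were -1.32 and -1.42 at 24 h of AZD6244, and -0.76 and 0.24 with siDUSP4.

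Other genes of the family were read as well. Of 20 other ETS family genes, 1 was higher and 5 lower at 4 h as the mean of the lines (1.12% and 12.7% of all genes), with a median change of -0.07 against -0.05 for all genes. At 24 h 2 were higher and 1 lower (7.24% and 19.2% of all genes). ELF3, an epithelial ETS factor, was the one that rose at 4 h (0.52, SE 0.07, adjusted p = 1.2e-05), with 0.98 in MDA231 (adjusted p = 2.8e-06), 0.32 in SUM159PT (adjusted p = 0.15) and 0.24 in BT549 (adjusted p = 0.69). GABPA, the broadly expressed GA-binding protein alpha, was lower (-0.34, SE 0.07, adjusted p = 0.00082), as were the epithelial factors SPDEF (-0.35, adjusted p = 0.013) and EHF (-0.24, adjusted p = 0.033), the EHF call being lost after repeated quantile normalization (-0.11, adjusted p = 0.32). With siDUSP4 2 of the 20 were higher and 3 lower as the mean of the lines (7.43% and 11.3% of all genes). ELF3 was higher in MDA231 (0.86, adjusted p = 9.5e-06) and lower in SUM159PT (-0.51, adjusted p = 0.022), and it was higher as the mean of the lines (0.21, adjusted p = 0.048). SPDEF was lower in MDA231 (-1.17, SE 0.16, adjusted p = 3.3e-06), EHF in SUM159PT (-1.30, SE 0.13, adjusted p = 3.6e-08) and ELF4 as the mean of the lines (-0.38, SE 0.07, adjusted p = 0.00021). After repeated quantile normalization 2 of the 20 were higher and 2 lower at 4 h, and 5 and 1 at 24 h. Of all 17958 genes, 920 were then higher and 974 lower at 4 h, and 2318 and 2472 at 24 h.

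Immediate early genes that ELK factors and SRF are known to drive were lower for 5 of 11 measured genes at 4 h as the mean of the lines, where 12.7% of all genes were, with a median of -0.23 against -0.05 for all genes. They included the zinc finger factor EGR1 (-2.31, SE 0.10, adjusted p = 7.6e-18), the AP-1 subunit FOS (-0.94, SE 0.09, adjusted p = 4e-09), the survival gene MCL1 (-0.62, SE 0.05, adjusted p = 6.9e-10) and IER2 (-0.59, SE 0.09, adjusted p = 4.4e-05). EGR1 in SUM159PT changed by -2.00 at 4 h (SE 0.17, adjusted p = 1.4e-09) and by -0.15 at 24 h (SE 0.17, adjusted p = 0.75), a line and interval over which all 3 PEA3 genes fell further. With siDUSP4 EGR1 was lower in MDA231 (-1.13, SE 0.17, adjusted p = 8.4e-06) and higher in BT549 (1.31, SE 0.17, adjusted p = 1.1e-06).

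Of 16 genes reported as PEA3 or ETS targets, 8 were lower at 4 h as the mean of the lines and 0 higher (12.7% and 1.12% of all genes). At 24 h 6 were lower and 1 higher (19.2% and 7.24% of all genes). The medians were -0.22 and -0.15, against -0.05 and -0.01 for all genes. Those lower at 4 h included the urokinase gene PLAU (-0.73, SE 0.10, adjusted p = 3e-06), the prostaglandin synthase gene PTGS2 (-0.59, SE 0.10, adjusted p = 0.00019), the transcription factor gene RUNX1 (-0.33, SE 0.06, adjusted p = 0.00013) and the membrane metalloprotease gene MMP14 (-0.31, SE 0.07, adjusted p = 0.0023). At 24 h RUNX1 and MMP14 were not called, with changes of -0.01 and -0.08. With siDUSP4 4 of the 16 were higher and 5 lower as the mean of the lines (7.43% and 11.3% of all genes), with MMP3 at 3.51 in MDA231 (SE 0.17, adjusted p = 4.6e-16), where ETV1 and ETV4 were lower, and MMP1 at -1.98 in BT549 (SE 0.16, adjusted p = 7.9e-11). Counts at 4 h were 1 higher and 7 lower after repeated quantile normalization, and 0 and 4 with array medians aligned. Of all 17958 genes, 920 were higher and 974 lower with the first scaling, and 966 and 977 with the second. VIM, a line marker, and PLAUR, an ERK output gene, are also among the 16.

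Of 13 measured regulators and partners of the ETS factors (16 were listed), 0 were higher and 2 lower at 4 h as the mean of the lines, a share near the 12.7% of all genes that were lower, and neither was called after repeated quantile normalization. They were FBXW7, a ubiquitin ligase subunit (-0.25, SE 0.07, adjusted p = 0.0099), and ATXN1, a partner of CIC (-0.20, SE 0.07, adjusted p = 0.047). At 24 h FBXW7 changed by -0.45 (SE 0.07, adjusted p = 4e-06), and 2 of the 13 were higher and 4 lower (7.24% and 19.2% of all genes). CIC, the repressor of the PEA3 genes, changed in MDA231 by -0.55 at 4 h (SE 0.16, adjusted p = 0.016) and by 0.46 at 24 h (SE 0.16, adjusted p = 0.035), a difference of 1.02 between 24 h and 4 h (SE 0.16, adjusted p = 9.7e-06). The 4 h change of CIC was not called after repeated quantile normalization (-0.31, adjusted p = 0.071). CIC was also lower with siDUSP4 as the mean of the lines (-0.48, SE 0.09, adjusted p = 0.00019), as was the acetyltransferase gene CREBBP (-0.24, SE 0.05, adjusted p = 0.0011).

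After the mean of each line was subtracted, the PEA3 genes varied together over the 36 arrays, with Pearson correlations of 0.90 for ETV4 and ETV5, 0.85 for ETV1 and ETV5 and 0.83 for ETV1 and ETV4. These describe arrays that share treatments and scaling. ETS1 and ELK3 had 0.71, and ETS2 had -0.30 to -0.14 with the PEA3 genes. The genes nearest to ETV4 were PITPNC1 (0.87), CCND1 (0.87) and ZNF367 (0.86), those nearest to ETV5 were TIAM1 (0.89), PDCD1LG2 (0.89) and CCND1 (0.89), and those nearest to ETV1 were NT5E (0.82), MLKL (0.79) and RPGR (0.79). PITPNC1, a phosphatidylinositol transfer protein gene, changed by -1.89 at 24 h in MDA231, by -0.71 in SUM159PT and by -0.28 in BT549, where it was not called. With siDUSP4 it changed by -0.99 in MDA231. As PITPNC1 was picked for its correlation with ETV4 over these same arrays, falls where ETV4 fell follow from that choice.

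Markers of the other cell types were also read beside these changes. Their summed linear signal was 119 to 141 in MDA231 arrays at 24 h, 181 to 231 at 4 h and 178 to 204 with siDUSP4, against 219 to 274 in siCONTROL. PECAM1 was the brightest of them in MDA231, with averages of 7.37 in siCONTROL and 5.72 at 24 h. The others averaged 3.49 to 4.62 in siCONTROL and 3.41 to 4.66 at 24 h, so the lower sum at 24 h is not a fall shared by all markers. The endothelial marker PECAM1 was lower in MDA231 at 24 h (-1.65, SE 0.14, adjusted p = 1.8e-10) and with siDUSP4 (-0.78, SE 0.14, adjusted p = 0.00017), whereas LYZ, a myeloid marker, was higher with siDUSP4 there (0.69, SE 0.13, adjusted p = 0.00014). In SUM159PT arrays the sum was 226 to 230 at 24 h, 209 to 226 at 4 h and 187 to 195 with siDUSP4, against 244 to 250 in siCONTROL. In BT549 it was 103 to 106 at 24 h, 86 to 91 at 4 h and 91 to 107 with siDUSP4, against 90 to 99 in siCONTROL. The leukocyte marker PTPRC, named after its values were seen, averaged 5.13 ± 0.12 with siDUSP4, 5.36 ± 0.11 at 4 h and 5.23 ± 0.14 at 24 h in SUM159PT, against 5.75 ± 0.11 in siCONTROL (SD, n = 3 each). It was called lower there with siDUSP4 (-0.62, adjusted p = 0.001), at 4 h (-0.39, adjusted p = 0.048, not called with array medians aligned) and at 24 h (-0.52, adjusted p = 0.0069). The part of these markers in the ETS factor changes was not tested. PECAM1, LYZ and PTPRC were the markers called in any of these comparisons with siCONTROL within a line, and VWF, CD3E and HBB averaged 3.36 to 3.63 in siCONTROL cells of the lines, below the median probe level.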

How the data were processed

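RNA of 3 cell lines was read on 36 Affymetrix arrays in 12 groups of 3. The deposited values are log2 signals that the authors obtained by RMA. The submitters' processing notes name Expression Console 1.1 from Affymetrix for this step, and the genome build is not given in the sources used here. Of 33297 probes, 19181 had a single gene symbol, and the brightest such probe stood for a gene, which gave 17958 genes.

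One model over all 36 arrays, with a mean for each group, was fitted in limma 3.58.1 (R 4.3.3), with Benjamini-Hochberg adjustment over all genes, and was tested on simulated data. Differences between lines used an F test of the effect across lines. The members, lists and tests were chosen with earlier results of these data known. From each list, up to 4 genes with the smallest p at 4 h and up to 2 with siDUSP4, in the mean of the lines, were named, and for each PEA3 gene the 3 genes closest to it in correlation. Alternatives were quantile normalization repeated, array medians aligned, dim genes left out, all probes of a gene averaged, eBayes with trend and robust, smaller fits, the replicate letter as a block, and each array left out. The precision is limited by the 3 arrays of a group.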

Additional observations from a re-analysis of the deposited data

Results flagged for a closer look

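An F test across the lines found that the response of some ETS factor genes differed between MDA231, SUM159PT and BT549. For AZD6244 at 24 h the adjusted p was 6e-09 for ETV1, 5.2e-06 for ETV4, 5.7e-08 for ETV5 and 0.0001 for ELK3, the changes in the 3 lines being -1.32, -1.42 and 0.14 for ETV1, -2.56, -1.64 and -0.41 for ETV4, -2.28, -2.03 and -0.26 for ETV5, and -1.17, -0.07 and -0.39 for ELK3. For AZD6244 at 4 h it was 0.0079 for ELK3, with changes of -1.20, -0.35 and -0.50. For siDUSP4 it was 5.2e-06 for ETV1, 0.029 for ELK3 and 0.03 for ELK4, with changes of -0.76, 0.24 and 0.35 for ETV1, -0.70, -0.14 and -0.15 for ELK3, and -0.37, -0.05 and 0.08 for ELK4. The ETV1 signal in BT549 was below the median probe level in every group, and a fall could not be read at such a signal.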

How the results depend on the processing

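Of 348 alternative counts of called ETS factor genes, 302 were within 1.5 times of the count given above. Of 2208 alternative values for 144 gene results, 2086 kept their side of the threshold, 62 were no longer called and 59 became called. The other 1 was called in the opposite direction, ETS2 between 24 h and 4 h in BT549, at 0.20 with array medians aligned against -0.05. Direction was compared only where a value was called. Uncalled values could change sign, such as ELK4 at 4 h in MDA231 (-0.23 to 0.11). With only the 2 groups compared, called ETS factor genes fell to 2 at 4 h in MDA231 (6 above) and to 0 in BT549 for siDUSP4, 4 h and 24 h (1, 1 and 2 above). Fewer arrays estimate the spread in these fits, and calls over all genes moved both ways. In BT549 those calls were 3758 for siDUSP4 against 2548, 80 at 4 h against 117, and 15 at 24 h against 2713. With the line fitted alone 0 ETS factor genes were called in those 3 BT549 comparisons (2003, 24 and 1379 of all genes). In SUM159PT 1 was called for siDUSP4 (0 above), 4 at 4 h (2 above) and 5 between the times (3 above). Over all genes the SUM159PT calls were 1333, 2694 and 1610, against 509, 769 and 540 with all 36 arrays fitted. Repeated quantile normalization gave 1 for siDUSP4 in SUM159PT, 3 at 4 h and 0 at 24 h in BT549, and 5 between the times in MDA231 (3 above). Over all genes it gave 1175, 318, 1260 and 5075 in the same order, against 509, 117, 2713 and 4471 on the deposited scale. Array medians aligned gave 2 for siDUSP4, 3 at 4 h, 1 (higher) at 24 h and 5 between the times in BT549 (0 above). Over all genes that scaling gave 4056, 198, 4301 and 4004 in the same order, against 2548, 117, 2713 and 1389. Dim genes left out, and eBayes with trend and robust, each gave 2 at 4 h in BT549. Effects that differed between lines numbered 5 for siDUSP4 (3 above) under either scaling, and 2 at 4 h (1 above) under either scaling or with dim genes left out. Over all genes they numbered 4523 (quantile) and 4309 (medians) for siDUSP4, against 2790, and 746 and 586 at 4 h, against 331. The cause of these differences was not tested.

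Leaving out 1 array gave 4 to 7 genes at 4 h in MDA231, 0 to 1 for siDUSP4, 0 at 4 h, 0 to 3 at 24 h and 0 to 1 between the times in BT549, and 1 to 3 (siDUSP4) and 1 to 5 (4 h) for differences between lines. Counts over all genes with an array left out are not given here. These ranges therefore do not tell a change in the ETS factor genes from a change in calls over all genes. At the edge of the threshold in MDA231, single omissions also added calls: without 4 h array A, ELK4 at 4 h (-0.23, adjusted p = 0.047) and ETS1 between the times (0.24, adjusted p = 0.026), without 4 h array B, ETS2 at 4 h (0.36, adjusted p = 0.031), and without 24 h array B, ELK1 between the times (0.38, adjusted p = 0.025).

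Over all genes, 2798 were called at 4 h in MDA231, 149 with the 2 groups only and 475 with the line alone; in BT549 at 24 h 2713 were called, 15 and 1379; and in SUM159PT at 4 h 769 were called, 2074 and 2694. The share of calls that were higher at 4 h in MDA231 was 7.1%, 47.7% with quantile normalization repeated and 33.8% with medians aligned, between the times there 82.0%, 49.2% and 53.9%, and at 24 h in BT549 17.6%, 50.7% and 90.4%. Aligning medians moved the median of all genes in BT549 at 24 h to 0.17, against -0.09.

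The letters A, B and C were not taken to pair the arrays, since not every same-letter correlation of deviations was above 0.1. Same-letter values ran from -0.41 to 0.45 in MDA231, -0.08 to 0.27 in SUM159PT (0.05 to 0.27 for C) and -0.16 to 0.12 in BT549, and different-letter values from -0.43 to 0.52, -0.18 to 0.14 and -0.16 to 0.21. With the letter as a replicate block, 18 of 18 counts were the same, among them 6 at 4 h in MDA231 (2726 of all genes), and 120 of 120 gene results kept their call. The 3 arrays of a group limit the precision, and signals below the median probe level, such as ETV1 in BT549, are close to background.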
